A study of Mus musculus with 8 samples.

Results

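The M16 family of zinc metalloproteases was followed in mouse alphaTC1.9 cells, a clonal line of glucagon-producing pancreatic alpha cells derived from a tumour, with and without knockdown of insulin-degrading enzyme (Ide). Its members were taken by gene symbol: the peptidase genes Ide, Nrdc (older name Nrd1), Pitrm1, Pmpca and Pmpcb, and the related genes Uqcrc1 and Uqcrc2 of the respiratory chain. Of these 7 genes, 6 had a named row among the 19494 named genes of the array, 1 row each, and Nrdc had no named row. The groups were IDE-KD cells, made with an siRNA against Ide (4 arrays), and cells labelled control (4 arrays). Both groups were the same cell line grown in medium with 16 mM glucose, and the labels give no further treatment. What the control cells received in place of that siRNA, and for how long Ide was knocked down, is not stated in the labels. The replicates are labelled biological, with nothing on whether each had its own culture, so p-values measure only how these arrays differ, which may be partly technical.

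M16 peptidases share a zinc-binding motif that runs in the opposite order to that of most metalloproteases, and they close around their substrates like a clam shell. Ide takes in short peptides such as insulin, glucagon and amylin, and is known mainly as an insulin-clearing enzyme. The mitochondrial members act on the targeting peptides of imported proteins: the mitochondrial processing peptidase cuts them off and Pitrm1 degrades them. Uqcrc1 and Uqcrc2 are the core proteins of respiratory complex III, relatives of the processing peptidase built into an electron transfer complex.

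The stretches below run from 60 bases before to 50 bases after the annotated transcription start of 4 members. They let the sequence at the annotated start of the knockdown target be set beside that of mitochondrial members. They are RefSeq sequences of build GRCm38.p6, 5′ to 3′ on the gene's strand. Capitals mark CGGAAG, the core bound by ETS factors such as GABP (nuclear respiratory factor 2), and GCATGCGC, part of the motif of nuclear respiratory factor 1 (NRF1), each searched on both strands. GABP and NRF1 are textbook regulators of nuclear genes for mitochondrial proteins.
Ide, chr19:37334495-37334604, minus strand: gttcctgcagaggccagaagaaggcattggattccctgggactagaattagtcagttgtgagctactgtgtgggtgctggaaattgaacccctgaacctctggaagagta
Pmpca, chr2:26389288-26389397, plus strand: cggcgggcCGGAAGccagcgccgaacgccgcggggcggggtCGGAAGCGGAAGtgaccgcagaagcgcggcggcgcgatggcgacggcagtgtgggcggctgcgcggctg
Pmpcb, chr5:21737100-21737209, plus strand: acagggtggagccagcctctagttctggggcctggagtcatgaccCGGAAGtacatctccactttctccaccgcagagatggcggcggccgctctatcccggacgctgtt
Uqcrc1, chr9:108936588-108936697, plus strand: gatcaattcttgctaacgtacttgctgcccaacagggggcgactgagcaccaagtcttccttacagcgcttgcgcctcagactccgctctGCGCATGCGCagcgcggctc

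Over the full windows of 300 bases, Pmpca held CGGAAG at 3 places and Pmpcb at 1, while 16.9% of 32851 promoter windows of the mouse table held it. Uqcrc1 held GCATGCGC on both strands of 1 overlapping site, and 2.71% of windows held it. The windows of Nrdc and of Pitrm1, a mitochondrial member, held neither CGGAAG nor GCATGCGC, like that of Ide. The GC box GGGCGG was found in the windows of Nrdc (1 place), Pitrm1 (3) and Pmpca (3), and in 35.7% of all windows. The Ide window held none of these letters and 0 CpG dinucleotides, and its GC content of 44% compared with a median of 52.7% over all windows, whereas Pmpca had 80.3% GC and 55 CpG dinucleotides. An entry was found for 6 of the 7 genes. A match is a description of the letters only. The siRNA targets the mRNA, and the arrays do not measure promoters. Whether the annotated starts, that of Ide included, are the ones used in alphaTC1.9 cells was not tested, so the windows may not be the active promoters.

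The values were log2 expression, 1 per probe set and array, on which 1 unit is a 2-fold change. Medians over the 22142 tested rows lay between 5.10 and 5.17 on all 8 arrays, and arrays correlated at 0.984 to 0.993 within groups and 0.984 to 0.991 between them. The median of the 6923 array control rows was 4.56, and each member's mean exceeded that of 96.9% to 99.1% of the 5222 negative control rows, so all 6 were measured well above low signal. The 7 alpha cell markers analysed here were all above 4.56, with Gcg, the glucagon gene, at 12.06 in IDE-KD and 12.06 in control cells. Of 30 measured markers of other cell types in 6 lists (beta, other islet, stromal, immune, endothelial, and acinar or duct cells), 23 lay below 4.56. None had a limma adjusted p under 0.05 and 5 had an unadjusted limma p under 0.05, as did 4.59% of all tested rows. Of these 5, 3 were above 4.56 and lower in IDE-KD cells. The VEGF receptor gene Kdr, the only 1 of 4 endothelial markers above 4.56, read 8.47 ± 0.03 in IDE-KD and 8.87 ± 0.13 in control cells (SD, n = 4 each), without overlap. Groups did not overlap, in either direction, at 2.80% of all tested rows. Sox9, a duct marker, read 7.18 ± 0.25 in IDE-KD and 7.53 ± 0.16 in control cells, and Nkx6-1, a beta cell marker, read 6.49 ± 0.16 in IDE-KD and 6.79 ± 0.19 in control cells, both with overlap. The other 2, below 4.56 and higher in IDE-KD cells, were the T cell gene Cd3e (3.36 in IDE-KD and 2.92 in control cells, without overlap) and the stromal gene Lum (2.69 in IDE-KD and 2.40 in control cells). The summed level of the endothelial list ran from 8.55 to 8.63 in IDE-KD and from 8.82 to 9.10 in control cells. That of the acinar and duct list ran from 7.65 to 7.95 in IDE-KD and from 7.90 to 8.22 in control cells. Such a sum mostly follows the brightest gene of a list, here Kdr and Sox9. Of the 4 endothelial markers, 3 were higher and only Kdr was lower in IDE-KD cells (median difference 0.14). Of the 5 acinar and duct markers, 2 were higher and 3 lower (median difference -0.05). The part of these markers in the results below was not tested.

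Ide mRNA was lower on every IDE-KD array than on every control array. The probe set TC1900001454.mm.2 read 7.91, 8.14, 7.92 and 8.05 on the IDE-KD arrays, against 8.66, 8.62, 8.72 and 8.48 on the control arrays. The lowest control array stood above the highest IDE-KD array, so the groups did not overlap. Relative to the control mean, the 4 IDE-KD arrays carried 61.0%, 71.7%, 61.5% and 67.4% of the Ide signal, and single control arrays lay between 90.9% and 107%. Fitted over the groups, 65.2% of the signal remained (95% confidence interval 54.7% to 77.7%), a log2 difference of -0.62 (SE 0.12). The share refers to array signal, which can compress differences in transcript number. In a bulk sample, knockdown in a part of the cells and a partial knockdown in each cell cannot be told apart.

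By an exact permutation test over the 8 arrays (two-sided), p was 0.0286, the lowest value 4 against 4 arrays can reach. In limma, fitted over all rows, the unadjusted p was 0.00016 and the Benjamini-Hochberg adjusted p was 1.00, so Ide did not pass an adjusted p of 0.05. No other row did: 0% of the 22142 rows were called, and 4.59% had an unadjusted p under 0.05. Ide was the only 1 of the 6 measured members with an unadjusted p under 0.05 and the only 1 that was lower without overlap, which 1.41% of all rows were. Ide varied little among replicates, with a pooled SD of 0.107 that was in the lower part of all rows, whose median was 0.209.

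**Figure D1:**
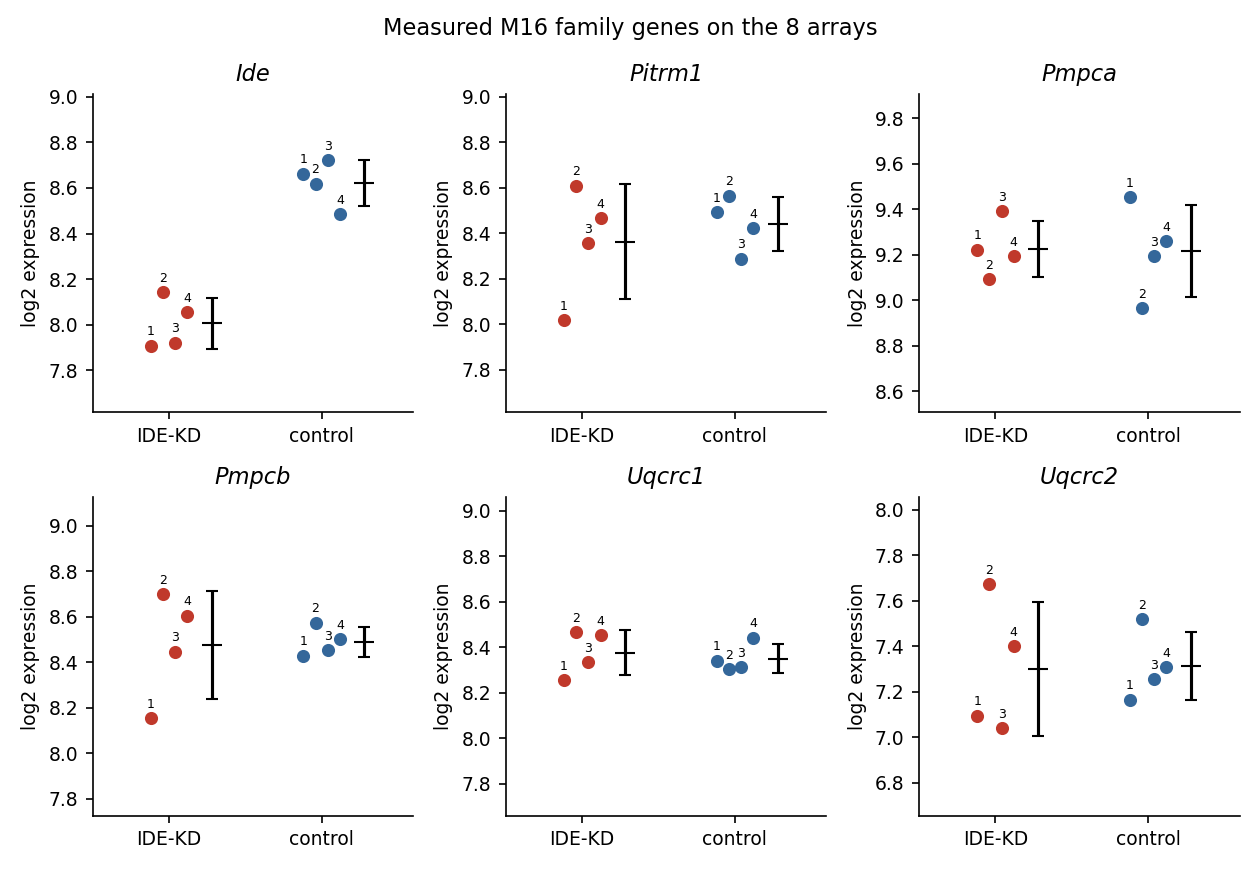
Log2 expression of the 6 measured M16 family genes on each array (points, numbered by replicate; IDE-KD left, control right), with the group mean and SD beside the points; every panel spans the same range of log2 units. Ide separates the groups, with IDE-KD arrays at 7.91 to 8.14 and control arrays at 8.48 to 8.72, and the groups of the other 5 genes overlap.

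Pitrm1 encodes the presequence peptidase of the mitochondrial matrix, which also degrades amyloid-beta peptide and in that respect resembles Ide. It read 8.02, 8.61, 8.36 and 8.47 on the IDE-KD arrays and 8.49, 8.57, 8.29 and 8.42 on the control arrays. Array 1 of the IDE-KD group was the lowest of all 8, array 2 of the same group was the highest, and the groups overlapped. The log2 difference was -0.08 (SE 0.14, 95% confidence interval -0.39 to 0.23), and it was 0.036 without IDE-KD replicate 1. Its adjusted p in limma was 1.00.

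Pmpca and Pmpcb encode the subunits of the mitochondrial processing peptidase: the beta subunit carries the zinc site that cuts, and the alpha subunit, which has lost it, helps bind the targeting peptide. Pmpca read 9.22, 9.09, 9.39 and 9.19 on the IDE-KD arrays and 9.45, 8.96, 9.19 and 9.26 on the control arrays, with all IDE-KD values inside the control range. Pmpcb read 8.15, 8.70, 8.45 and 8.60 on the IDE-KD arrays and 8.43, 8.58, 8.45 and 8.50 on the control arrays, with the IDE-KD values spread to both sides of the control range. The log2 differences were 0.0075 (SE 0.13, 95% confidence interval -0.28 to 0.29) for Pmpca and -0.01 (SE 0.13, 95% confidence interval -0.31 to 0.28) for Pmpcb, both with a limma adjusted p of 1.00. Neither direction was stable: leaving out single arrays gave -0.077 to 0.086 for Pmpca and -0.088 to 0.093 for Pmpcb.

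Uqcrc1 and Uqcrc2 encode the core subunits of complex III, which passes electrons from ubiquinol to cytochrome c. Uqcrc1 read 8.26, 8.47, 8.34 and 8.45 on the IDE-KD arrays and 8.34, 8.30, 8.31 and 8.44 on the control arrays. It was among the steadiest rows, with a pooled SD of 0.0841 undercut by 3.17% of rows, and its log2 difference of 0.03 (SE 0.11) had a 95% confidence interval of -0.22 to 0.27. Uqcrc2 read 7.09, 7.67, 7.04 and 7.40 on the IDE-KD arrays and 7.16, 7.52, 7.26 and 7.31 on the control arrays. The lowest and the highest Uqcrc2 values were both from IDE-KD arrays, and its log2 difference was -0.01 (SE 0.15, 95% confidence interval -0.35 to 0.32). The groups overlapped for both genes and both adjusted p in limma were 1.00.

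**Figure D2:**
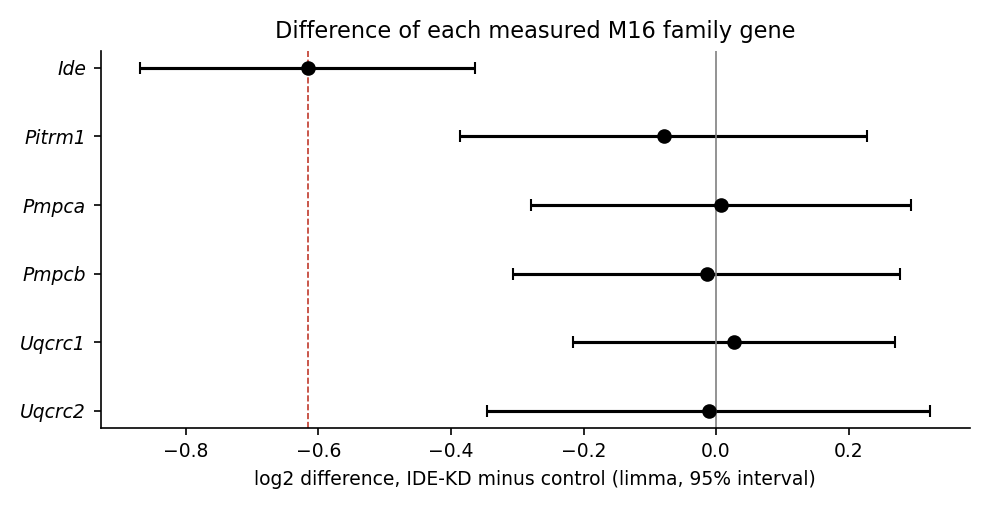
Fitted log2 difference, IDE-KD minus control, of each measured M16 family gene (points) with its 95% confidence interval from limma (bars); the dashed line is the Ide difference of -0.62 and the solid line is 0. The intervals of the 5 other genes all include 0 and all end to the right of the dashed line, the lowest at -0.39.

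The other 5 members thus had differences whose intervals reached from -0.39 to 0.32 at most, that is, from a 1.31-fold decrease to a 1.25-fold increase. A fall of the size fitted for Ide lay outside each of these intervals, as it did for 95.3% of all tested rows. Exact two-sided permutation tests of the 5 genes gave p between 0.657 and 0.971. Over the 6 members, 2 were higher and 4 lower with a median difference of -0.01, beside a median of 0.0074 over all tested rows.

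Whether Ide changed differently from a relative was tested within arrays, where a shift common to an array drops out. Nrdc, planned for this comparison, had no row, and Pitrm1 was put in its place after the data were seen. Ide minus Pitrm1 was -0.11, -0.47, -0.44 and -0.41 on the IDE-KD arrays and 0.17, 0.05, 0.43 and 0.06 on the control arrays. The groups did not overlap, with a difference of -0.54 (SE 0.12) and an exact two-sided permutation p of 0.0286, the smallest possible. This test reuses the Ide values, whose groups were already apart, so it is not independent of the test of Ide itself. The same quantity with the other members reuses them too and is given without a test. It was -0.62 (SE 0.16) with Pmpca, -0.60 (SE 0.10) with Pmpcb, -0.64 (SE 0.083) with Uqcrc1 and -0.61 (SE 0.14) with Uqcrc2.

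Of the 5 mitochondrial members measured, Pitrm1, Pmpcb, Uqcrc1 and Uqcrc2 varied in parallel among arrays. As a description over 8 arrays, on each of which all genes share 1 RNA sample and 1 hybridisation, deviations from the group means correlated at r = 0.93 for Pitrm1 and Pmpcb, 0.81 for Pmpcb and Uqcrc2, and 0.78 for Pmpcb and Uqcrc1, and at 0.59 for Uqcrc1 and Uqcrc2, the lowest of these 6 pairs. Pmpca did not share this pattern, at -0.07 with Uqcrc1, -0.26 with Pitrm1, -0.41 with its partner Pmpcb and -0.77 with Uqcrc2. The level of an array's positive control rows moved with this pattern: their means were 6.95, 7.13, 6.92 and 7.09 on the IDE-KD arrays and 7.05, 7.10, 7.09 and 7.07 on the control arrays. Over the 8 arrays they correlated with Uqcrc2 at r = 0.87, Pmpcb at 0.75, Pitrm1 at 0.68, Uqcrc1 at 0.57, Ide at 0.55 and Pmpca at -0.58. The SD over all tested rows of an array was 2.16, 2.25, 2.13 and 2.23 on the IDE-KD arrays and 2.20, 2.24, 2.22 and 2.22 on the control arrays. The pattern was not particular to the members. The mitochondrial import gene Timm23 read 7.37, 8.38, 7.65 and 8.26 on the IDE-KD arrays, whereas Timm50 read 8.13, 8.20, 8.35 and 8.12. The part of these array measures in the members' values was not tested.

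**Figure D3:**
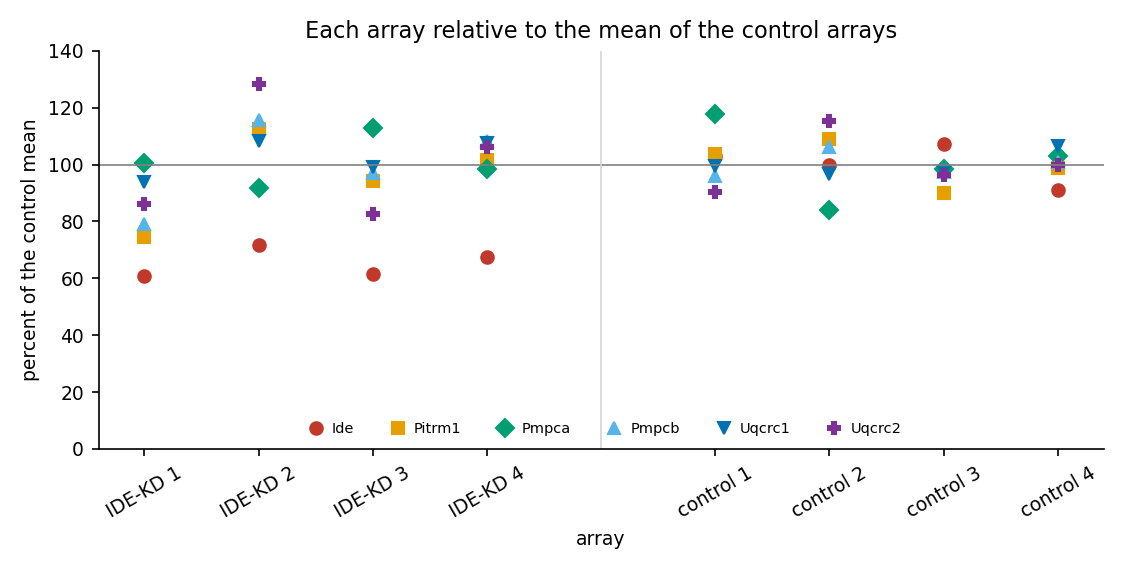
Signal of each measured M16 family gene on each array as a percent of its mean over the control arrays (y axis from 0; IDE-KD arrays left, control arrays right; 1 symbol per gene). Ide lies at 61.0% to 71.7% on all IDE-KD arrays, while Pitrm1, Pmpcb and Uqcrc2 are below 100% on IDE-KD arrays 1 and 3 and above it on IDE-KD arrays 2 and 4.

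Genes that work with the members were examined as 5 lists of 77 genes in all, of which 74 had a row, with Tgfa in 2 of the lists. Limma called 0 of them at an adjusted p under 0.05, 0 had an unadjusted p under 0.05 (4.59% of all rows did), and 0 kept the groups apart (2.80% of all rows did). Of the 74, 44 were higher and 30 lower in IDE-KD cells, with a median difference of 0.02 and a range of -0.28 to 0.25. The genes named from each list are the 3 with the smallest p values, given as values only.

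The partners of Uqcrc1 and Uqcrc2 in complex III and its assembly split evenly, with 7 of 14 higher and 7 lower (median -0.0046). The small subunit gene Uqcr10 read 9.18 ± 0.12 in IDE-KD and 9.30 ± 0.19 in control cells, a difference of -0.12 (SE 0.13). Bcs1l, whose product inserts the iron-sulfur protein into the complex, read 7.29 ± 0.33 in IDE-KD and 7.14 ± 0.30 in control cells, a difference of 0.15 (SE 0.18). Cyc1, the cytochrome c1 gene, differed by -0.09 (SE 0.15). SDs are over 4 arrays a group here and below.

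The import machinery that feeds proteins to the processing peptidase had 15 of 26 members higher and 11 lower (median 0.02). Tomm5, of the outer membrane channel, read 7.48 ± 0.10 in IDE-KD and 7.26 ± 0.12 in control cells, a difference of 0.21 (SE 0.12). Timm22, of the inner membrane carrier translocase, read 6.96 ± 0.23 in IDE-KD and 6.73 ± 0.13 in control cells, a difference of 0.23 (SE 0.14). Hspa9, the matrix chaperone of the import motor, read 7.08 ± 0.50 in IDE-KD and 7.35 ± 0.28 in control cells, a difference of -0.28 (SE 0.22). Its interval reached down to -0.76 and included a fall of the size of Ide's, which the intervals of the other 25 genes of this list did not.

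Other mitochondrial proteases had 6 of 14 measured members higher and 8 lower (median -0.01). Immp1l, of the inner membrane peptidase, read 5.95 ± 0.24 in IDE-KD and 6.20 ± 0.13 in control cells, a difference of -0.25 (SE 0.14). Xpnpep3, an aminopeptidase that trims proteins after the processing peptidase, read 6.12 ± 0.24 in IDE-KD and 6.37 ± 0.20 in control cells, a difference of -0.26 (SE 0.15). Yme1l1, an inner membrane protease, differed by -0.13 (SE 0.12).

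Peptides that Ide cleaves or binds were represented by 14 of 16 genes, with 10 higher and 4 lower (median 0.08) and 9 above the control row median of 4.56. The 3 with the smallest p values were all below it: the atrial natriuretic peptide gene Nppa read 3.03 ± 0.39 in IDE-KD and 3.31 ± 0.05 in control cells, a difference of -0.28 (SE 0.17). Nppb, for the related B-type peptide, differed by 0.22 (SE 0.17), and the chemokine gene Ccl4 by 0.19 (SE 0.15). Some genes above 4.56 were also near background: Ins2, Nppc and Pomc exceeded only 63.2%, 61.8% and 60.3% of the negative control rows. At such low signals a gene's expression cannot be told from background.

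Nrdc had no row, but 7 genes linked to nardilysin had one, and the fitted differences of all 7 were above 0, as were 52.1% of all tested rows, with a median of 0.07 and none passing the test. Of the 7, 6 lay above the control row median of 4.56, and Mafa, at 3.43 in IDE-KD and 3.36 in control cells, lay below it. Adam17, the sheddase that nardilysin enhances, read 7.65 ± 0.08 in IDE-KD and 7.53 ± 0.13 in control cells, a difference of 0.12 (SE 0.12). Hbegf, a growth factor released by such shedding, differed by 0.24 (SE 0.22). Isl1, the islet transcription factor gene, read 9.75 ± 0.09 in IDE-KD and 9.68 ± 0.03 in control cells, a difference of 0.07 (SE 0.11).

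**Figure D4:**
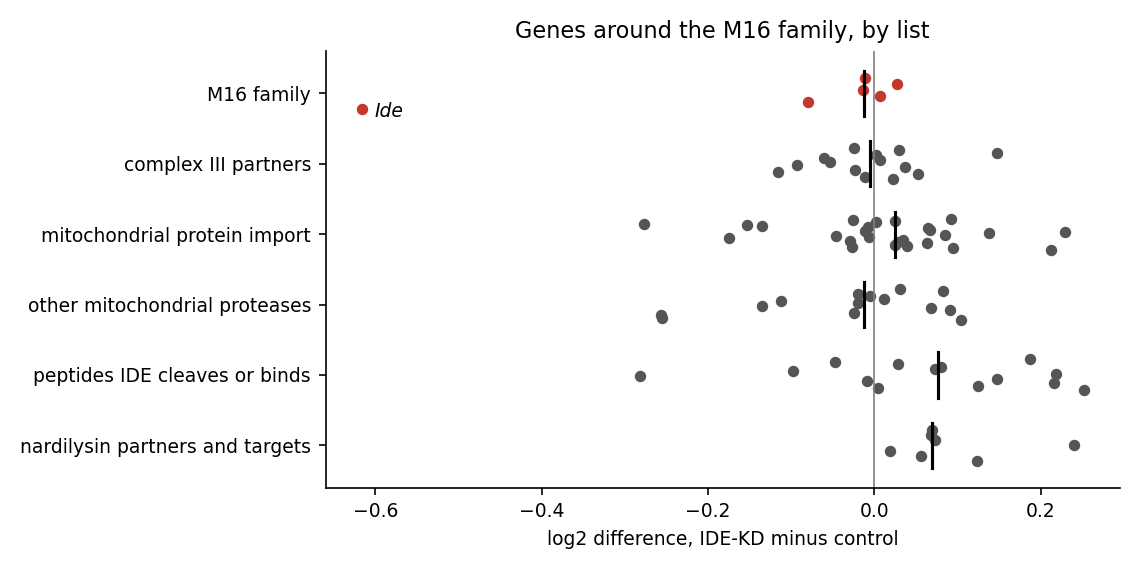
Log2 difference, IDE-KD minus control, of each gene (points) in the M16 family and in the 5 related lists, with the list median as a vertical bar. Ide, at -0.62, lies apart from the 74 list genes, which range from -0.28 to 0.25.

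The genes next to Ide on its chromosome were also read, with the order taken from the mouse gene table. On the side of Marchf5 (a mitochondrial ubiquitin ligase gene), Cpeb3 and Btaf1, the log2 differences were 0.15 (SE 0.14), 0.03 (SE 0.13) and -0.16 (SE 0.22). On the other side, Kif11, Hhex and Exoc6 differed by -0.14 (SE 0.11), 0.30 (SE 0.18) and 0.13 (SE 0.12), with Hhex below the control row median of 4.56 in both groups. Kif11, a mitotic kinesin gene, read 7.61, 7.53, 7.48 and 7.42 on the IDE-KD arrays and 7.66, 7.65, 7.64 and 7.68 on the control arrays. Its groups did not overlap (exact two-sided permutation p = 0.0286), as at 2.80% of all rows, but its interval of -0.38 to 0.09 included 0 and its adjusted p in limma was 1.00.

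**Figure D5:**
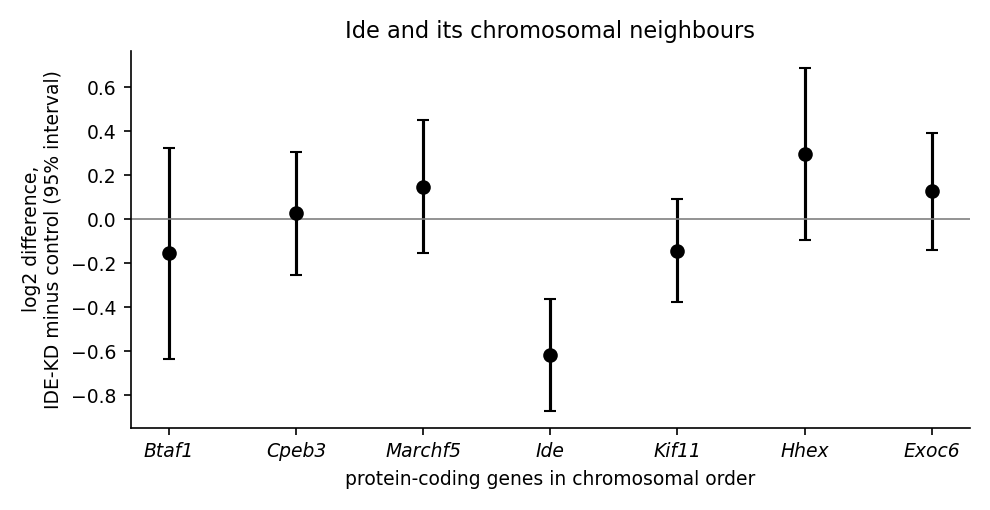
Log2 difference, IDE-KD minus control, with its 95% confidence interval (limma) for Ide and the 3 protein-coding genes on each side of it, in chromosomal order. The interval of Ide, -0.87 to -0.36, is the only 1 of the 7 that excludes 0.

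The genes whose pattern over the 8 arrays was most like that of Ide were, among 10949 named rows above the control row median, Zfp266 (Pearson r = 0.96), Ipp (0.96), Kdr (0.95), Sh3pxd2a (0.94) and Utp18 (0.93). Since Ide separates the groups, such genes had to be lower in IDE-KD cells: Zfp266 read 8.37 in IDE-KD and 8.77 in control cells, and Ipp 5.93 in IDE-KD and 6.34 in control cells. When only deviations from the group means were compared, the closest were the SNARE gene Vti1b (r = 0.99), the nucleotide sugar transporter gene Slc35d1 (0.98) and the Polycomb gene Bmi1 (0.98). Vti1b followed Ide from array to array within groups without a group difference, at 6.73 in IDE-KD and 6.73 in control cells. These correlations, the highest of 10949 over 8 arrays, are descriptions with no test. Among the members, r with Ide over the 8 arrays was 0.35 for Pitrm1, 0.20 for Pmpcb, 0.19 for Uqcrc2, -0.10 for Uqcrc1 and -0.11 for Pmpca.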

How the data were processed

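The deposited values were log2 expression values of Clariom S arrays, 1 column per array. Per the submitters' processing notes, RMA, oligo and limma were used, with versions and roles unstated. RMA usually corrects background, equalises array distributions and summarises probes by median polish, which removes global changes and compresses low signals. No source used here names the probe sets' genome build.

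Of 29129 rows, 22142 transcript clusters were tested, 6923 were array control rows and 64 unplaced rows were left out. GEO's platform annotation named 19527 of the tested rows with 1 symbol, 0 with several, and left 2615 unnamed. Values were used as deposited. IDE-KD minus control was fitted by lmFit and eBayes of limma 3.58.1 (R 4.3.3), no covariate entered the design, and p-values were adjusted over all 22142 rows by the Benjamini-Hochberg method, with a threshold of 0.05. The fit was run on simulated data with independent noise for each row and array, unlike the patterns shared across rows here. Its recovery of changes as small as that of Ide is not given here. Exact permutation tests used scipy 1.17.1 and were two-sided. The number of arrays limits the precision.

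Members, lists and the naming rule were chosen with earlier results of these data known. The rule named all members, the 3 genes of each list with the smallest p, 3 neighbours on each side of Ide, and the 5 and 3 genes most like Ide. Markers of other cell types and Mafa were named after their values were seen. Alternatives covered scaling, a filter on dim rows, variance model, array weights, the replicate block and leaving out each array. The planned comparison of Ide with Nrdc could not be run because Nrdc had no named row, and Pitrm1 was used.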

Additional observations from a re-analysis of the deposited data

Results flagged for a closer look

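Dixon's 95% critical value for 4 samples was exceeded in 5 of the 70 groups of 4 arrays examined for the named genes, where chance gives about 1 in 20. No group of an M16 family gene was among them. Xpnpep3 stood apart in both groups: IDE-KD replicate 4 read 6.47 where the other IDE-KD arrays read 5.97 to 6.02, and control replicate 3 read 6.08 where the other control arrays read 6.45 to 6.51. Nppa read 2.44 on IDE-KD replicate 1, against 3.18 to 3.27 on the other IDE-KD arrays, all below the median of the array control rows. Btaf1 read 6.07 on IDE-KD replicate 3, against 6.93 to 7.10 on the others of its group. Immp1l read 6.40 on control replicate 2, against 6.12 to 6.16 on the other control arrays.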

How the results depend on the processing

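The count of rows called stayed at 0 under all 15 alternatives, with 519 (dim rows left out, which tests 12516 rows) to 1452 (without IDE-KD replicate 2) rows at an unadjusted p under 0.05. The Ide difference kept its direction and did not pass in any of the 15: it ran from -0.63 to -0.59 over the settings other than leaving out an array and from -0.66 to -0.58 when arrays were left out, with adjusted p from 0.152 (eBayes with trend and robust) to 1.00. With the replicate number as a block it was -0.62 (adjusted p = 0.761). Ide minus Pitrm1 was -0.62 (without IDE-KD replicate 1) to -0.45 (without control replicate 3) when arrays were left out, with an exact permutation p of 0.0571 each time, the smallest that 3 against 4 arrays allow. As paired differences under the replicate block it was -0.54, with an exact permutation p of 0.125, the smallest for 4 pairs. Deviations of same-numbered arrays correlated at 0.10, 0.13, 0.088 and 0.098. Those of differently numbered arrays split by odd and even number. Where both numbers were odd or both even, r was positive, from 0.025 (IDE-KD 2 and control 4) to 0.21 (IDE-KD 4 and control 2). Where 1 number was odd and the other even, r was negative, from -0.23 (IDE-KD 4 and control 1) to -0.048 (IDE-KD 3 and control 4). What this split reflects was not tested. These values do not settle whether the numbers mark pairs. The labels name no batch, and the numbers were not taken as pairs in the main fit. Signs of the other members turned as follows, and the cause was not tested. Pmpca was -0.0060 after centring on array medians and -0.015 with array weights. Pmpcb was 0.012 after repeated quantile normalization, 0.013 after cyclic loess and 0.0026 with array weights, and Uqcrc2 was 0.014, 0.018 and 0.016 in the same settings. When single arrays were left out, Pitrm1 ran from -0.16 to 0.036 (positive without IDE-KD replicate 1), Pmpca from -0.077 to 0.086 (negative without IDE-KD replicate 3 or control replicates 2 or 3), Pmpcb from -0.088 to 0.093 (positive without IDE-KD replicate 1 or control replicate 2), Uqcrc1 from -0.0020 to 0.068 (negative without IDE-KD replicate 2) and Uqcrc2 from -0.13 to 0.076 (positive without IDE-KD replicates 1 or 3 or control replicate 2).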

Other observations

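Replicate spread differed between the groups for some members and was close for Ide (SD 0.112 in IDE-KD and 0.101 in control cells). The SD over arrays was larger in IDE-KD than in control cells for 5 of the 6 measured members, the exception being Pmpca (0.124 in IDE-KD and 0.201 in control cells), and the same held for 61.8% of all tested rows. Pmpcb showed it most plainly, with an SD of 0.239 over the IDE-KD arrays and 0.065 over the control arrays, and Uqcrc2 had 0.294 in IDE-KD and 0.150 in control cells. These spreads were not tested.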
